A study of Homo sapiens with 24 samples.

Results

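Ribosome profiling counts the mRNA fragments that translating ribosomes shield from nuclease digestion (RPF, called footprints here) beside RNA of the same cells (INPUT). COPS7B belongs to the COP9 signalosome, which regulates cullin-based ubiquitin ligases by taking the ubiquitin-like protein NEDD8 off cullins. A gene without RNA gives no footprints, so both readings of a silent gene should be near background.

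The genes described here are those switched on in the libraries labelled HCT15 COPS7B and off in those labelled HCT15. A gene was a member if it had at least 20 CPM (counts scaled to a common library sum over the shared genes) in each of the 4 COPS7B libraries and a mean of at most 1 CPM over the 4 parental HCT15 libraries. Of 20426 genes listed in all 24 tables, 273 met this rule, or 1.34%. The members were chosen by these COPS7B and parental values, which are therefore given as a description and with no test.

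The study has 6 cultured populations with 2 INPUT and 2 RPF libraries each. They are HCT15 with the genotype label COPS7B overexpression (called COPS7B), the colon cancer lines HCT116 and SW620, the line 841-CON labelled as normal colon epithelium (841CON), HCT15 titled PLVX, an expression vector (called vector), and parental HCT15. The last 5 all carry the genotype label WT, and the vector population differs from parental HCT15 in its title. All 6 received cycloheximide, which stalls elongating ribosomes, at 100 µg/mL for 10 minutes. The labels do not say whether replicates were separate cultures or whether the overexpressing cells were 1 clone, and p-values therefore cover only library-to-library spread, possibly technical. The culture protocol also gives a medium for 293TN cells, for which no sample is labelled. The files list Ensembl identifiers without gene names, and the reference tables used here paired 0 of them with a symbol, so members are described by rank and pattern, neither their functions nor the cell type markers were examined, and the level of COPS7B itself was not checked.

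The libraries labelled COPS7B stood apart from both other HCT15 forms. Over 11418 genes that are not members, the Pearson correlation of log2(CPM + 1) between INPUT libraries was 0.643 to 0.660 for COPS7B with vector and 0.599 to 0.634 for COPS7B with parental, against 0.863 to 0.878 for vector with parental. COPS7B with HCT116, a different line, gave 0.684 to 0.696. In the footprints COPS7B gave 0.711 to 0.739 with vector, 0.625 to 0.663 with parental and 0.588 to 0.596 with HCT116, against 0.765 to 0.862 for vector with parental. COPS7B was thus nearer to HCT116 than to vector in INPUT and nearer to vector in footprints, and it is called by its label throughout. The INPUT likeness to HCT116 was not particular to COPS7B. HCT116 INPUT gave 0.725 to 0.737 with vector and 0.695 to 0.703 with parental, so HCT116 was nearer to vector than to COPS7B. Library totals were 1237231 to 9105954 counts in INPUT and 84262 to 4679279 in RPF. The SW620 RPF libraries were the shallowest, with 98043 and 84262 counts, so that 3 counts there equal 30.6 and 35.6 CPM.

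The same on/off rule was applied to each pair of populations, and the counts are not scaled to the number of genes on in each. At 20 CPM or more in all 4 libraries were 4595 genes in HCT116, 4998 in SW620, 4610 in 841CON and 5858 in vector. In COPS7B the 273 members and 7114 other genes were. The rule gave 0 genes on in vector and off in parental, and 0 genes on in parental and off in vector. With COPS7B on, it gave 192 genes off in HCT116, 284 off in SW620, 311 off in 841CON and 159 off in vector. Other lines against parental HCT15 gave fewer genes, with 65 for HCT116, 70 for SW620 and 75 for 841CON. Off in vector the order changed, with 197 for 841CON against 159 for COPS7B, 51 for SW620 and 38 for HCT116. Off in HCT116, 841CON gave 189 genes against 192 for COPS7B. In the opposite direction 42 genes were on in parental and off in COPS7B, and 30 of those 42 were also on in all 4 vector libraries.

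**Figure D1:**
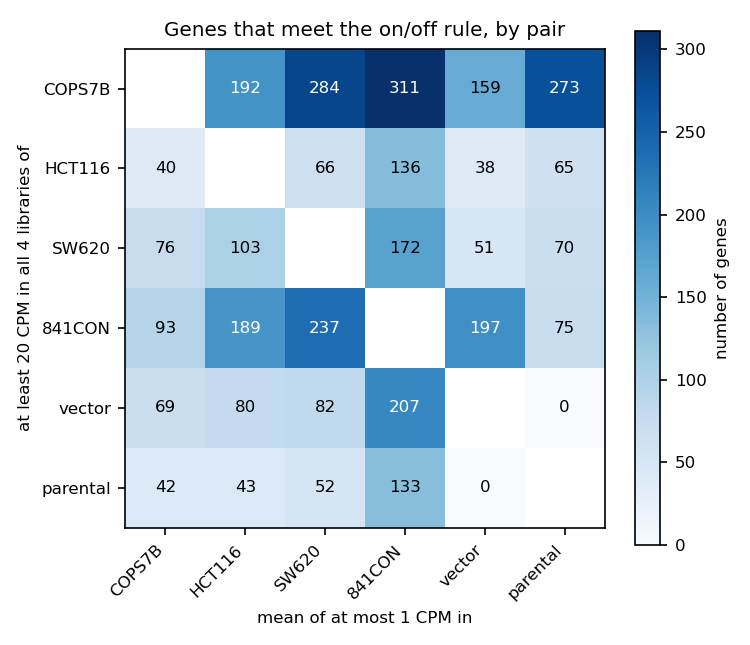
Number of genes, of 20426, at or above 20 CPM in all 4 libraries of the population on the vertical axis and at a mean of at most 1 CPM over the 4 libraries of the population on the horizontal axis. The vector and parental populations give 0 in both directions, while COPS7B against parental gives 273.

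Within the COPS7B libraries the 273 genes covered a wide range. The mean over the 4 libraries ran between 21.4 and 852 CPM with a median of 50.1 CPM. It was under 50 CPM in 136 members, between 50 and 100 CPM in 98 and at least 100 CPM in 39. The members summed to 17794 and 16644 CPM in COPS7B INPUT and to 18884 and 18713 CPM in COPS7B RPF. Footprint replicates were close, with a median difference of 1.08-fold and none over 2-fold, and INPUT replicates differed by a median of 1.23-fold, with 11 members over 2-fold.

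RNA and footprints were both present for every member in COPS7B, as the rule required. The ratio of mean RPF to mean INPUT CPM had a median of 1.01 over the members and ran between 0.344 and 3.14. The 7114 other genes at 20 CPM or more in all 4 COPS7B libraries had a median of 0.959. Both footprint libraries lay above both INPUT libraries for 106 members and below both for 82, and the libraries overlapped for 85. These are 38.8%, 30.04% and 31.1% of members, against 34.2%, 38.0% and 27.8% of the 7114 other genes.

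Members just inside the first threshold had a lowest COPS7B library of 20.1, 20.2 and 20.3 CPM, and the nearest genes outside had 19.97, 19.76 and 19.76 CPM. Just inside the second threshold the parental means were 0.996, 0.976 and 0.972 CPM, and just outside 1.0008, 1.0038 and 1.0038 CPM.

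**Figure D2:**
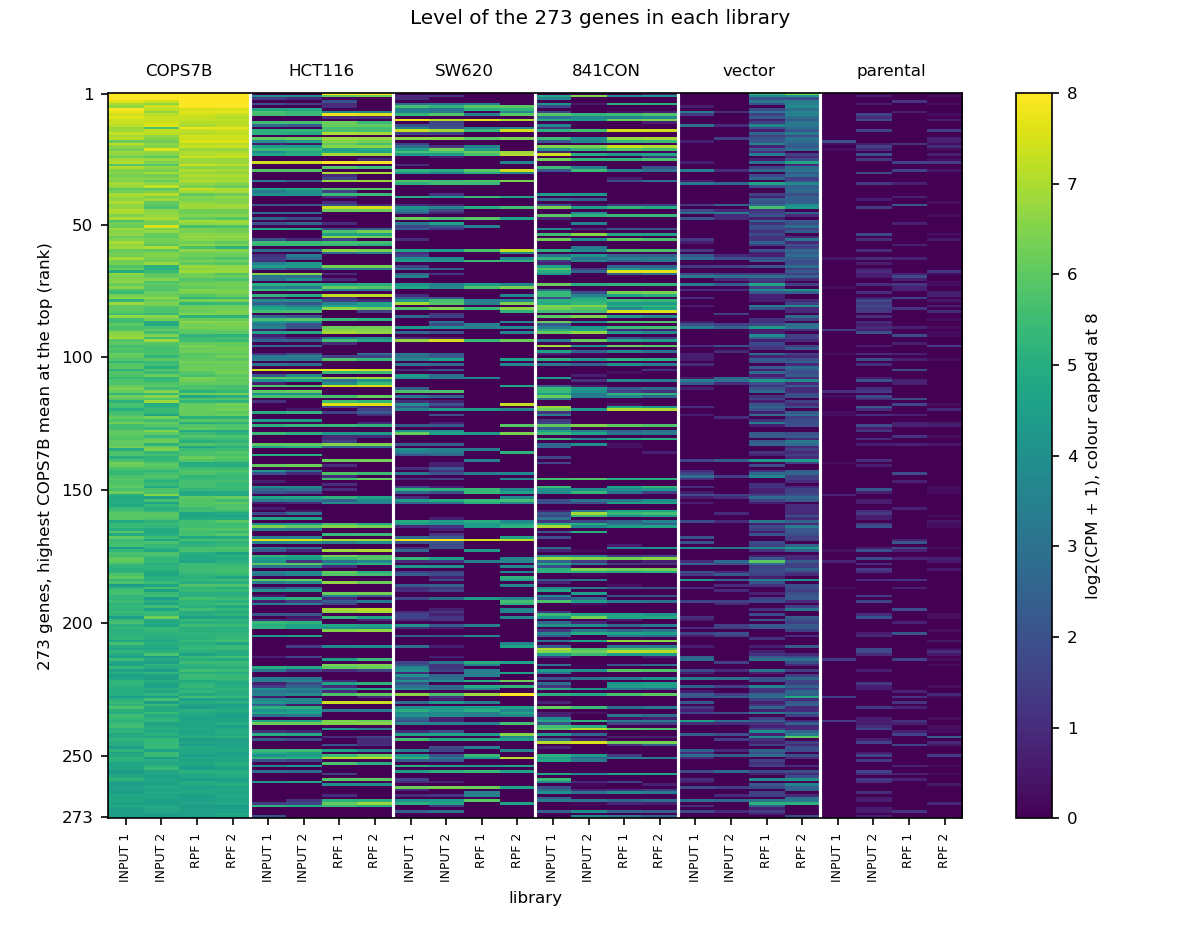
Level of each of the 273 genes (rows, ranked by mean COPS7B level with the highest at the top) in each of the 24 libraries (columns), as log2(CPM + 1). The COPS7B columns are bright throughout and the parental columns dark, as the rule set, and the vector RPF columns carry low signal over most rows while the vector INPUT columns do not.

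The vector population, which took no part in choosing the members, had little of their RNA. Because vector and parental cells share the line label HCT15, a low level in vector is related to the rule and is given with no test. The median member had a mean of 0 CPM in vector INPUT and 2.15 CPM in vector RPF. None of the 273 reached 20 CPM in all 4 vector libraries, against 28.7% of all genes, and 113 had a mean of at most 1 CPM over the 4, against 39.5% of all genes.

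Vector footprints nevertheless held counts for most members. A count was present for 207 and 225 members in the RPF libraries of vector and for 93 and 65 members in its INPUT libraries. For 156 members the vector line had footprint counts and no INPUT count, and for 10 it had no count in any of 4 libraries. The members summed to 940 and 1116 CPM in vector RPF and to 295 and 175 CPM in vector INPUT. Members with a mean of at most 1 CPM in vector INPUT and between 1 and 20 CPM in vector RPF numbered 141, or 51.6%, while 4.33% of all genes had that pattern. Part of this contrast lies in the low INPUT alone, which 219 members or 80.2% had, against 41.7% of all genes.

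The footprint trace in vector was a small share of the COPS7B level. The ratio of vector RPF to COPS7B RPF had a median of 0.0374, with quartiles of 0.0186 and 0.0692. In the 91 members with the highest COPS7B footprint level the median vector RPF level was 3.54 CPM, in the middle 91 it was 1.85 CPM and in the lowest 91 it was 1.39 CPM. In the same order the median ratio rose, from 0.0296 to 0.0327 and 0.0508. Spearman's rho across the 273 members between a vector RPF and a COPS7B RPF library was 0.185 to 0.335, as a description across genes that share depth and sequencing. Between a vector RPF and an HCT116 RPF library it was 0.183 to 0.229. Among the 40 members that were off in HCT116, SW620 and 841CON, vector RPF libraries detected 27 and 31, and vector INPUT libraries detected 5 and 5. The source of these footprint counts was not tested.

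**Figure D3:**
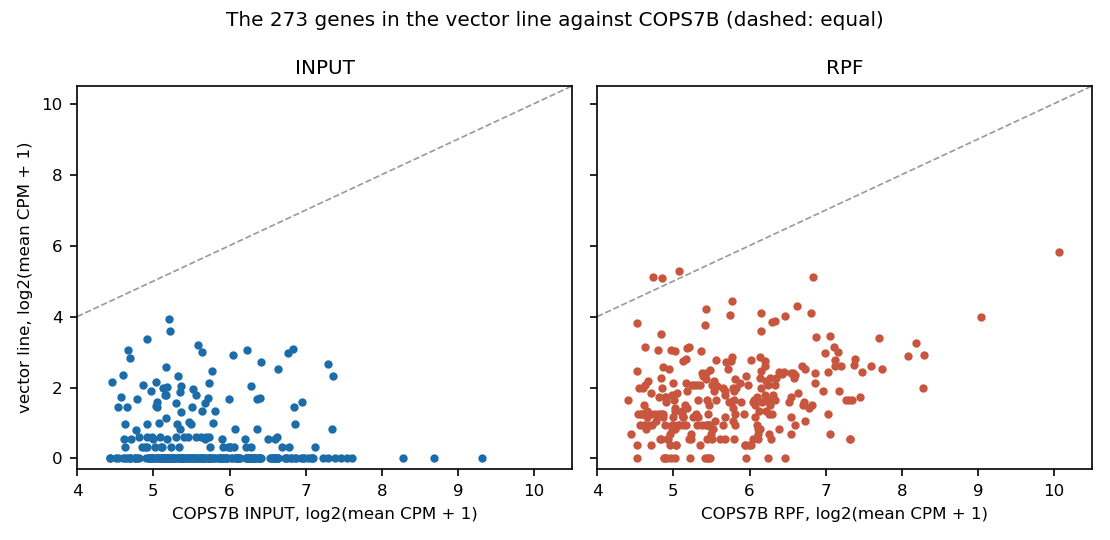
Mean level of each of the 273 genes in the vector line (vertical axis) against COPS7B (horizontal axis), as log2(mean CPM + 1) over 2 libraries, for INPUT on the left and RPF on the right. In INPUT 166 genes lie at 0 in vector, and in RPF 15 do.

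**Figure D4:**
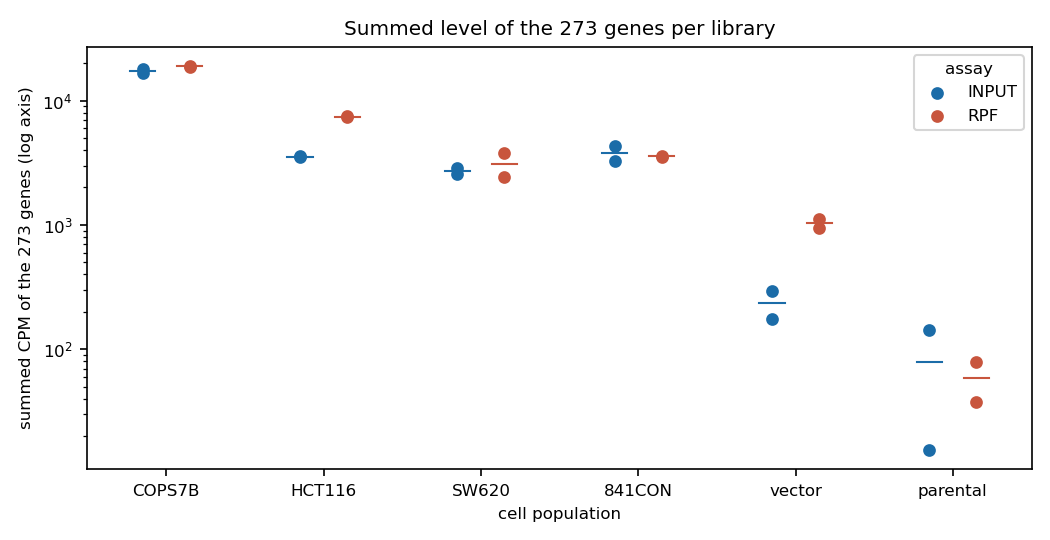
Summed CPM of the 273 genes in each library on a log axis, with points for libraries and short lines for the mean of 2. COPS7B libraries lie between 16644 and 18884 CPM, HCT116, SW620 and 841CON between 2428 and 7515 CPM, vector between 175 and 1116 CPM and parental between 15.5 and 144 CPM.

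In parental HCT15 the members summed to 15.5 and 144 CPM in INPUT and to 79.4 and 38.0 CPM in RPF, and 110 members had no count in any parental library. The second INPUT library held counts for 109 members and the first for 19. Across the 273 members that second INPUT library had a Spearman's rho of 0.559 to 0.648 with the 4 841CON libraries, and the second parental RPF library 0.383 to 0.528, while the first of each assay had -0.117 to 0.0417. These are descriptions across genes. The source of these counts was not tested.

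The other 3 lines differed in which members they expressed. In all 4 libraries at 20 CPM or more were 35 members in HCT116, 21 in SW620 and 22 in 841CON, or 12.8%, 7.69% and 8.06% of members, while 22.5%, 24.5% and 22.6% of all genes passed in those lines. All genes include those on in parental HCT15, where members are off by the rule, so these shares are not like for like. Genes on in HCT116, SW620 and 841CON and off in parental numbered 65, 70 and 75, and include these members. Outside the list, 8280 genes were off in parental. Of the 273, 205 were on in none of the 3 lines by that measure, and 68 in at least 1. HCT116 alone had 27, SW620 alone 16 and 841CON alone 16, and 1 member was on in all 3. A mean of at most 1 CPM over the 4 libraries was found for 97 members in HCT116, 135 in SW620 and 127 in 841CON, against 44.4%, 40.5% and 43.7% of all genes. In combination, 40 members had a mean of at most 1 CPM in each of HCT116, SW620 and 841CON, or 14.7% of members against 32.3% of all genes. Of these 40, 17 had no count in any of the 12 libraries of the 3 lines, and 2 members, ranked 174 and 255 by COPS7B level, had no count in any of the 20 libraries outside COPS7B.

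Differences of each line from the vector line were tested with edgeR's quasi-likelihood test over 11938 genes, adjusted by Benjamini-Hochberg, and are side by side below because all 3 share the vector libraries. All 273 members passed the filter on low counts with the COPS7B libraries in the fit, and 126 passed without them. Without them 61 members were higher and 0 lower in HCT116 RNA, and 61 and 9 in its footprints. In SW620 RNA 43 and 0 were, and in its footprints 20 and 0. In 841CON RNA 70 and 2 were, and in its footprints 48 and 21. Of all genes, 5.535% and 13.21% were higher in HCT116 RNA and footprints, 7.53% and 8.12% in SW620, and 14.75% and 17.4% in 841CON. Since vector shares the HCT15 label with the libraries that were required to be low, an excess of higher calls over lower ones supports nothing about the members.

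In HCT116 RNA, 98 members were higher and 2 lower than in vector, where 7.54% and 9.31% of all genes were. Of the 98, 60 had no vector INPUT count. Without the first vector INPUT library 49 members and 2.34% of all genes were higher, and without the second 62 members and 3.79%. Neither lower call was kept when either HCT116 INPUT library was left out. In HCT116 footprints 86 members were higher and 30 lower, where 14.4% and 38.2% of all genes were, and the median fitted log2 difference over all genes was -0.94. The 30 lower members had no HCT116 footprint count in 26 cases, with a median of 4.85 CPM in vector. The 30 lower calls came to 8 without the first HCT116 RPF library, 8 without the second and 18 without the second vector RPF library, and to 4 with the 4 closest replicate pairs (COPS7B RPF, HCT116 INPUT and RPF, 841CON RPF) summed into 1 library each.

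In SW620, 69 members were higher and 3 lower in RNA, where 10.1% and 12.5% of all genes were. In its footprints 32 were higher and 1 lower, where 9.06% and 14.8% were. Without the first vector INPUT library 35 members and 3.99% of all genes were higher in RNA, and without the second 42 and 3.20%. The 3 lower calls in RNA came to 0 or 1 with any 1 INPUT library of either population left out. Without the second SW620 RPF library 15 members and 6.34% of all genes were higher in footprints, and without the first vector RPF library 16 and 4.10%. In 841CON, 101 members were higher and 13 lower in RNA, where 16.7% and 17% of all genes were, and 67 were higher and 78 lower in footprints, where 18.7% and 29.2% were. The 78 lower footprint calls came to 16 without the first 841CON RPF library, fewer than the 53 higher ones there, to 45 without the second, and to 16 with close pairs summed. The 13 lower RNA calls came to 25 without the first 841CON INPUT library, 1 without the second and 6 without the first vector INPUT library.

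HCT116 had footprints without RNA for a group of members. Its libraries had 28 with a mean of at least 20 CPM in footprints and at most 1 CPM in INPUT, or 10.3% of members, where 1.16% of all genes had that pattern. SW620 had 1 such member and 841CON had 1, where 0.416% and 0.259% of all genes had it. The 28 summed to 2447 and 2531 CPM in HCT116 RPF, from 2442 and 2563 counts, while HCT116 INPUT held 5 and 5 counts of them, and 22 of the 28 had no INPUT count. The ratio of HCT116 RPF to COPS7B RPF had a median of 1.27 over these 28, which were picked for high HCT116 footprints, and ran between 0.221 and 3.68, against a median of 0.0125 over all 273. Another 18 members had the opposite pattern in HCT116, with INPUT at 20 CPM or more and RPF at 1 CPM or less, or 6.59% of members against 6.35% of all genes.

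Footprints without RNA were also seen in HCT116 outside the list. Of the 126 members with at most 1 CPM in HCT116 INPUT, 22.2% had HCT116 footprints at 20 CPM or more. Among 136 genes outside the list that were equally low in HCT116 INPUT and on in all 4 COPS7B libraries the share was 30.1%, and among 6917 genes low in HCT116 INPUT and in COPS7B it was 0.434%. Across the 11418 other genes, the correlation between INPUT and RPF libraries of the same population was 0.585 to 0.594 in HCT116 and 0.847 to 0.862 in COPS7B. Between these lay SW620 at 0.614 to 0.722, 841CON at 0.705 to 0.725, parental at 0.704 to 0.734 and vector at 0.763 to 0.831. Why HCT116 footprints and RNA differ was not tested.

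**Figure D5:**
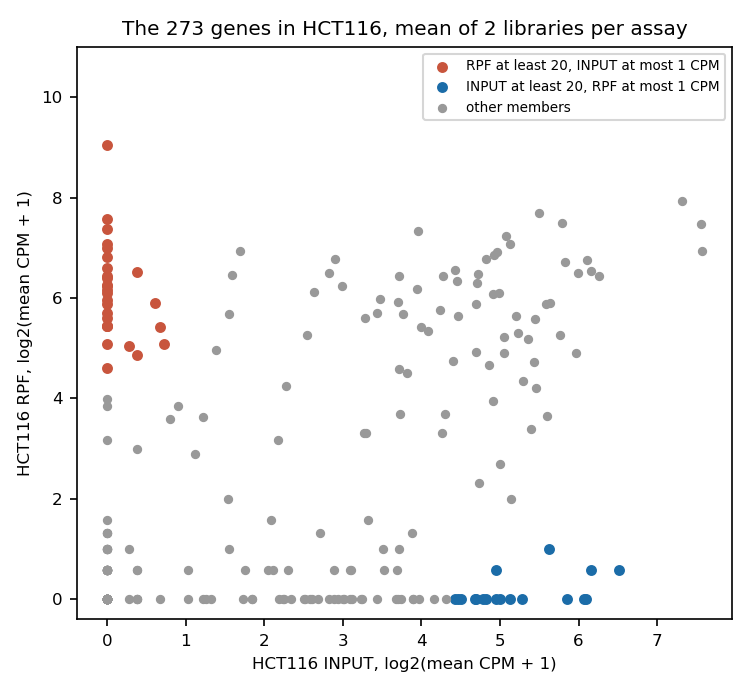
Mean level of the 273 genes in HCT116 footprints (vertical axis) against HCT116 INPUT (horizontal axis), as log2(mean CPM + 1) over 2 libraries each. The 28 red genes along the left edge have footprints and at most 1 CPM of RNA, and the 18 blue genes along the lower edge have RNA and at most 1 CPM of footprints.

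ENSG00000133124 had the highest COPS7B mean of all members. It had 526 and 745 CPM in COPS7B INPUT, 1071 and 1064 CPM in COPS7B RPF, and 0 CPM in all 4 parental libraries. In HCT116 it had 539 and 515 CPM in the footprints and no count in either INPUT library. In vector it had 37.6 and 73.8 CPM in the footprints and no INPUT count. In the main fit it passed the low-count filter through the COPS7B libraries, and it failed when those alone were left out. Its differences from vector are therefore given as values with no test. The HCT116 and vector footprint libraries did not overlap, and the fitted log2 difference was 3.23 (SE 0.43), or 10.1-fold on pooled counts. With only the compared libraries in the fit the log2 difference was 3.167. SW620 had no count of it in 4 libraries and 841CON had 1 count, so its pooled footprint level was below that of vector in both lines. In SW620 the pooled footprint level was at least 3.17-fold lower.

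ENSG00000178695 was the second highest. It had 460 and 359 CPM in COPS7B INPUT and 555 and 501 CPM in COPS7B RPF, against at most 0.513 CPM in any parental library. HCT116 had 14.5 and 14.5 CPM in INPUT and 67.1 and 76.0 CPM in RPF, while vector had no INPUT count and 12.3 and 17.5 CPM in RPF. Its RNA was at least 14.5-fold higher in HCT116 and at least 79.5-fold higher in 841CON than in vector, with vector set to a floor of 3 counts over both libraries (edgeR adjusted p = 0.0001594 and 1.937e-06). The 841CON INPUT libraries had 26.7 and 89.9 CPM, and the first alone gives a bound of 26.9-fold. Its footprints were 4.97-fold higher in HCT116 than in vector on pooled counts, with a log2 difference of 2.24 (SE 0.49, edgeR adjusted p = 0.001154). In 841CON footprints the log2 difference from vector was 0.17 (SE 0.50, edgeR adjusted p = 0.8072), and its sign turned without scaling between libraries. Relative to RNA, its footprints in HCT116 exceeded those in 841CON by 4.20 on the log2 scale (SE 0.67, edgeR adjusted p = 0.000115). The difference was 3.18 without the second 841CON INPUT library. Both values set HCT116 footprints against HCT116 RNA, which differed for reasons that were not tested.

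ENSG00000164778 and ENSG00000177854 had the most negative fitted differences in HCT116 footprints minus vector. ENSG00000164778 had 120 and 96.4 CPM in COPS7B INPUT and 103 and 93.1 CPM in COPS7B RPF. All 4 HCT116 libraries were at 0, against 8.16 and 5.67 CPM in vector INPUT and 24.1 and 12.9 CPM in vector RPF. Its HCT116 level was at least 13.1-fold lower in footprints (edgeR adjusted p = 0.002272) and at least 9.58-fold lower in RNA (edgeR adjusted p = 0.02083), and the RNA call was lost when either HCT116 INPUT library or the first vector INPUT library was left out. SW620 had 33.3 and 43.5 CPM of its RNA. ENSG00000177854 had 21.6 and 36.8 CPM in COPS7B INPUT and 48.3 and 56.4 CPM in COPS7B RPF. HCT116 had 8.43 and 5.69 CPM in INPUT and no footprint count, against 11.2 and 7.56 CPM in vector INPUT and 11.7 and 19.4 CPM in vector RPF. Its footprints were at least 9.91-fold lower in HCT116 (edgeR adjusted p = 0.009283), a call lost when either HCT116 RPF library was left out, while its RNA did not pass (log2 difference -0.13, SE 1.18, edgeR adjusted p = 0.9992).

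Translational efficiency, the footprint level relative to RNA, was compared between HCT116 and 841CON for the 59 members with enough INPUT counts in both lines. It was higher in HCT116 for 12 members and lower for 13, where 15.1% and 30.6% of 8502 genes were (edgeR quasi-likelihood test of the interaction). Of the 13, 9 had no HCT116 footprint count, and of the 12, 2 had no 841CON footprint count. Efficiency in HCT116 rests on its RPF and INPUT libraries, which correlated at 0.585 to 0.594 across the 11418 other genes. HCT116 RPF libraries correlated at 0.589 to 0.602 with vector RPF libraries, which is a comparison within 1 assay. Across assays, they correlated at 0.335 to 0.507 with the INPUT libraries of the other populations, lower than with HCT116 INPUT. Whether the 2 HCT116 assays match was not tested. Without the first 841CON RPF library 15 members passed in either direction, and without the first HCT116 RPF library 16. The lower calls came to 7 in both cases and to 6 without the second HCT116 RPF library, and the higher calls to 20 without the second 841CON INPUT library.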

How the data were processed

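Each of the 24 libraries was deposited by the authors as raw counts per Ensembl gene. Per the submitters' processing notes the tools were cutadapt 3.5, STAR 2.7.9 and HTSeq 2.0.2 with the build GRCh38; the annotation release, strand setting and handling of multiply aligned reads are not given in these sources, so counts of near-identical, overlapping and antisense genes are uncertain. INPUT tables list 60623 identifiers and those of RPF list 20426, all shared. The 5 summary lines in 8 tables name no gene and were left out. These 8 are the vector and COPS7B tables, and those of parental HCT15 and the other lines have no such lines. CPM was computed over shared genes.

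The members, lists and tests were chosen with earlier results of these data known. All 24 libraries entered one quasi-likelihood model with 1 mean for each group (edgeR 4.0.16, R 4.3.3), with 12 residual degrees of freedom, trimmed-mean scaling within each assay, and 11938 genes passing a minimum count of 10. Efficiency was tested as an interaction, where INPUT counts averaged 10 or more in each line. Genes passed at an adjusted p under 0.05, two-sided. Folds against a group at 0 use a floor of 3 counts over the group, which covers counting error only. Procedures were tested on simulated data. Alternatives were other scaling, DESeq2 1.42.0, no filter, fewer libraries, a replicate block and leaving out each library; 2 more were added after seeing the data.

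The identifiers printed are the 2 members with the highest COPS7B mean and the 2 with the most negative fitted difference in HCT116 minus vector footprints. The rule for naming had other parts and allowed more. Among those not printed are the members with the largest positive difference there, which reached 10.9 on the log2 scale. Because the files do not pair identifiers with names, the planned gene lists and markers were not applied. Replicate numbers were not shown to pair libraries: same-numbered deviations correlated at -0.12 to 0.11. Replicates of COPS7B RPF, HCT116 INPUT, HCT116 RPF and 841CON RPF were closer than others, with a chi-square per degree of freedom of 1.39 to 1.70 against 4.12 to 63.9, and were kept as 2 libraries each.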

Additional observations from a re-analysis of the deposited data

Results flagged for a closer look

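Genes listed in the INPUT tables and not in the RPF tables took no part in the comparisons. Of these 40197, 10 had at least 20 CPM in both COPS7B INPUT libraries and a mean of at most 1 CPM in parental INPUT. They summed to 513 to 716 CPM in COPS7B INPUT, against 11.3 to 12.7 CPM in vector INPUT and 1.22 to 4.68 CPM in parental INPUT. A mean of at most 1 CPM in vector INPUT was found for 8 of the 10, and 0 reached 20 CPM in both HCT116 INPUT libraries.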

How the results depend on the processing

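The list held 504 genes with a minimum of 10 CPM, 81 with 50 CPM, 481 from the RPF libraries alone and 159 with vector in place of parental, against 273; leaving out 1 library gave 263 to 344, and trimmed-mean scaling 225. Members higher than vector, of 98 in HCT116 RNA, numbered 61 without the 4 COPS7B libraries, where 126 members were tested, 41 with close replicate pairs summed, where 1.497% of all genes were higher, and 49 to 74 with 1 library left out. Of 69 in SW620 RNA, 43 passed without the COPS7B libraries and 35 to 53 with 1 library left out. Of 32 in SW620 footprints, 20 passed without the COPS7B libraries, 18 with close pairs summed, 21 with only the compared libraries, where 29 members were tested, and 15 to 29 with 1 library left out. Of 101 in 841CON RNA, 63 passed with only the compared libraries, where 84 members were tested. Of 25 efficiency calls, 14 passed without the COPS7B libraries, 5 with close pairs summed and 15 to 30 with 1 library left out. Without the COPS7B libraries 5.535% of all genes were higher in HCT116 RNA, 7.53% in SW620 RNA and 8.12% in SW620 footprints. Efficiency calls then covered 41.45% of the genes tested. With only the compared libraries 13.74% of all genes were higher in SW620 footprints and 9.89% in 841CON RNA. With close pairs summed 5.13% were higher in SW620 footprints. The COPS7B exclusion and the close pairs were chosen after seeing the data. The other 83 values of these counts were within 1.5 times of the reported ones, but lower calls moved more: with only the compared libraries, where fewer members were tested, 78 in 841CON footprints came to 14, 30 in HCT116 footprints to 4 and 13 in 841CON RNA to 1. The sign of ENSG00000178695 in 841CON footprints minus vector turned to -0.17 without scaling and ran between -0.012 and 0.37 with 1 library left out, and that of ENSG00000177854 in HCT116 RNA minus vector ran between -0.42 and 0.12, with values of 0.12 without the second HCT116 INPUT library and 0.11 without the first vector INPUT library; none passed. The call of ENSG00000164778 in HCT116 RNA was also lost without the COPS7B libraries and with close pairs summed (edgeR adjusted p = 0.0766 and 0.1501), and that of ENSG00000177854 in HCT116 footprints with close pairs summed (edgeR adjusted p = 0.07638). Where no value shows it, the cause was not tested.

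With the replicate number as a block, which the labels do not say marks a pairing, the counts of higher members were 94 and 86 in HCT116 RNA and footprints, 66 and 31 in SW620, 95 and 64 in 841CON, with 26 efficiency calls. Of all genes, 7.17% and 14.24% were higher in HCT116, 9.43% and 8.83% in SW620, and 15.97% and 18.43% in 841CON. Efficiency calls covered 45.01% of the genes tested. In the SW620 RPF libraries a count of 0 allows up to 30.6 and 35.6 CPM, above the 20 CPM of the rule.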
